A study of Mus musculus with 2 samples.

Results

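The insulin-like growth factor (IGF) axis was followed in 661W cells through 10 mouse genes, the ligand Igf1, its receptor Igf1r, the binding protein genes Igfbp2, Igfbp3, Igfbp4, Igfbp5, Igfbp6 and Igfbp7, and the pappalysin protease genes Pappa and Pappa2. The genes were chosen by symbol, with the fold changes of these same cells already known, so every count over them is a description. Of the 10 genes, 9 were among the 13281 genes measured, and Igfbp3 was not analysed here. 661W cells are murine and described as cone photoreceptors by the study. The line grows without limit and was established from a tumor that arose in the eye of an SV40 T antigen transgenic animal. The data were 2 RNA-seq libraries under normal culture without AUY922, the HSP90 inhibitor of the study. Of these, 1 came from cells carrying the empty pBABE-Puro retroviral vector. The other came from cells stably expressing 3xF-TRPM1, the full-length human TRPM1 cation channel with an N-terminal triple FLAG tag. Both were puromycin-selected populations, and the human transgene itself was not analysed here. With 1 library for each condition there was no replicate, no test and no p-value, and the effect of 3xF-TRPM1 and any other difference between the 2 cultures cannot be told apart.

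IGF1 is a secreted growth factor that acts through the receptor tyrosine kinase IGF1R, which signals through insulin receptor substrates to the PI3K and AKT kinases. IGF-binding proteins hold most of the ligand outside the cell and set how much of it reaches the receptor. The pappalysins are secreted metalloproteases that cleave some of these binding proteins and so release the ligand, and the stanniocalcins inhibit the pappalysins. In the retina, IGF signalling is known for its part in vessel growth and in the survival of neurons.

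Expression was given in CPM, counts scaled by library size, and each value was a whole multiple of what 1 read is worth, which gave back the read counts. The listed genes summed to 16404444 reads for the empty vector and 17869838 for 3xF-TRPM1. The lowest listed values were 17 and 18 reads, and the 9 IGF axis genes had 78 to 8725 reads in empty vector cells and 33 to 7178 in 3xF-TRPM1 cells. Where a pair of values is given for a gene, the empty vector comes first. Fold changes are 3xF-TRPM1 over empty vector, as log2 of CPM plus 0.5. The 95% exact intervals beside them belong to the ratio of reads and cover counting error only. A gene was called higher or lower when it differed by at least 1.5-fold and its interval excluded 1-fold. The cone label was checked against 11 cone markers, of which 1, Gnat2, was listed, at 2.57 and 2.49 CPM, while the opsins Opn1sw and Opn1mw, Arr3, Pde6c, Cnga3 and Crx were not. Rod genes were listed for 1 of 6 and retinal pigment epithelium genes for 0 of 6.

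Of the 9 listed genes, 5 were higher in 3xF-TRPM1 cells (Pappa2, Igf1, Igfbp2, Igfbp4 and Pappa), 1 was lower (Igfbp5) and 3 were neither (Igf1r, Igfbp6 and Igfbp7). Among all 13281 genes 3.91% were called higher and 3.07% lower. At 2-fold, Pappa2 and Igf1 were higher and Igfbp5 was lower, against 0.866% and 0.881% of all genes. The log2 fold change was above 0 for 6 of the 9 and below 0 for 3, with a median of 0.69 beside 0.01 over all genes. Because the genes were picked with their fold changes known, these shares are not evidence about the axis. The plot of fold change against mean level places them among all genes.

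**Figure D1:**
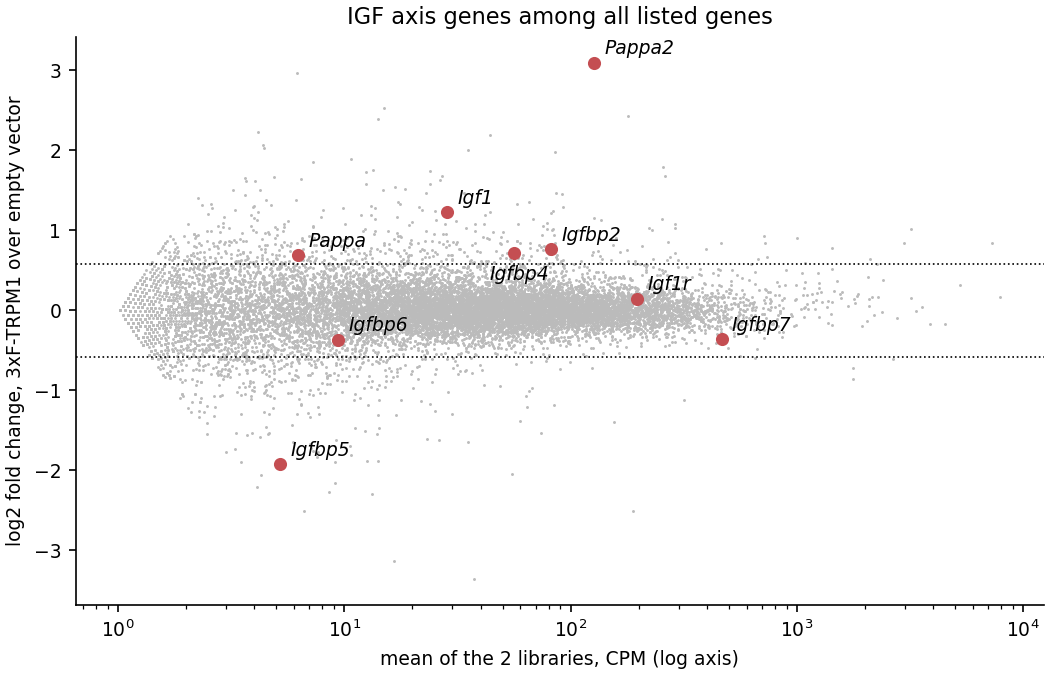
The log2 fold change of 3xF-TRPM1 over empty vector is plotted against the mean CPM of the 2 libraries on a log axis, with 1 grey point for each of 13281 genes, the 9 IGF axis genes in red and dotted lines at 1.5-fold. Pappa2 is the highest point on the plot at 3.10, and Igfbp5, at -1.92, is the only IGF axis gene under the lower line.

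Fibroblast markers moved in the same direction as the genes called higher. The marker lists were chosen with earlier results of these data known, so their counts are a description. Their background is 3.91% called higher and 3.07% called lower among all genes. Of 10 fibroblast markers 9 were listed, 8 were higher and 0 lower, and Lum was not listed. Their summed level was 9046 CPM with the empty vector against 16153 CPM with 3xF-TRPM1. Postn alone gave 5193 and 9328 CPM of that sum. Of 8 Mueller glia markers 4 were listed, while Rlbp1, Aqp4, Kcnj10 and Gfap were not. Of the listed 4, 3 were higher (Apoe, Clu and Slc1a3) and Glul was neither, at 36.0 and 32.6 CPM. Their summed level was 666.7 and 1077 CPM, of which Slc1a3 gave 526.9 and 819.3 CPM. Of 7 smooth muscle and pericyte markers 6 were listed, 1 was higher and 5 were neither, and Rgs5 was not listed. Their summed level was 606.4 and 956.1 CPM. Most of it was the gene called higher, Acta2, at 568.5 and 904.6 CPM. Macrophage and endothelial markers were listed for 1 of 7, which was lower (4.84 and 2.95 CPM), and for 1 of 5, which was neither (2.09 and 2.61 CPM), with Ptprc, Csf1r, Pecam1 and Cdh5 not listed. The part of these markers in the differences of the IGF axis genes was not tested. In RNA from a whole culture, fewer cells of a type and less RNA per cell cannot be told apart.

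The ligand gene was higher and its receptor gene differed little. Igf1 measured 16.9 CPM (282 reads) with the empty vector against 40.2 CPM (709 reads) with 3xF-TRPM1. The 3xF-TRPM1 value was 2.38 times the empty vector value (95% exact interval 2.07 to 2.75), a log2 fold change of 1.23, which ranked 62 from the top of all genes. Igf1r measured 187 CPM (3128 reads) against 206.8 CPM (3648 reads), giving a log2 fold change of 0.14 (0.08 to 0.21). The interval excluded 1-fold, but the difference was well short of 1.5-fold. Per kilobase of gene length, receptor transcript stood at 6.54 times the ligand transcript (5.79 to 7.42) in empty vector cells and at 3.04 times (2.80 to 3.29) in 3xF-TRPM1 cells, so the receptor stayed the more abundant of the pair in each library.

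Igf1 lies on chromosome 10 from 87858265 to 87937042 on the plus strand of GRCm38, with 8 annotated transcripts, and Igf1r on chromosome 7 from 67952827 to 68233668, also on the plus strand. RefSeq (GRCm38.p6) promoter entries matched 9 of the 10 genes, Igfbp3 among them and Pappa not. The first 250 bases, which end at the start site, were searched on both strands for the TATA box TATAAA, the CCAAT box CCAAT, the GC box GGGCGG, the E-box CACGTG, the AP-1 element TGANTCA, the FoxO element TGTTTAC and the STAT element TTCNNNGAA. Over 32851 promoters of this length, 12.4% held the TATA box, 33.8% the CCAAT box, 32.7% the GC box, 6.02% the E-box, 6.75% the AP-1 element, 3.17% the FoxO element and 7.02% the STAT element. A match describes letters and is not a shown binding site. Only these letters were searched, so other forms of an element were not counted. Sequences are given for the genes past 2-fold and for Igfbp2, which is adjacent to Igfbp5, with matches in capitals. The Igf1 window, chr10:87860861-87861110 on the plus strand, ends at a start site 2846 bases inside the annotated gene. It holds a CCAAT box on the other strand, 142 bases before the start. At 37 bases it holds TGAATCA, a match to the loose AP-1 pattern TGANTCA, in which N is any base.
Igf1: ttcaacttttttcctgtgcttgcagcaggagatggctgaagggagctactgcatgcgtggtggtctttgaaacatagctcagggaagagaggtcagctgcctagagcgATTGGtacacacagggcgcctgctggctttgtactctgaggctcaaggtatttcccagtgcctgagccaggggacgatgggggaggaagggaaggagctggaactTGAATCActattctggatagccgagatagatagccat

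The pappalysin genes were both higher, and Pappa2 had the highest log2 fold change of the 13281 listed genes. That ranking leaves out genes below 1 CPM in either library, which were not listed. That first place depends on the constant added to CPM before taking log2. Robo2 measured 1.02 CPM with the empty vector against 11.3 CPM with 3xF-TRPM1, a larger ratio of CPM than that of Pappa2. With the constant added, the log2 fold change of Robo2 was 2.97, below that of Pappa2. Pappa2 encodes PAPP-A2, which cleaves IGFBP3 and IGFBP5 in human. It measured 26.1 CPM (437 reads) with the empty vector against 227.4 CPM (4012 reads) with 3xF-TRPM1. The ratio was 8.71 (7.89 to 9.63) and the log2 fold change 3.10 (2.98 to 3.27). Among all genes ranked by CPM per kilobase, Pappa2 moved from percentile 26.3 to percentile 82.3.

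Pappa encodes PAPP-A, which cleaves IGFBP2, IGFBP4 and IGFBP5 in human. It measured 4.66 CPM (78 reads) against 7.82 CPM (138 reads), a ratio of 1.68 with a wide interval of 1.26 to 2.24 and a log2 fold change of 0.69. Its rank was 356 from the top, and the lower end of its interval lay below 1.5-fold. Per kilobase, Pappa2 transcript was 6.002 times Pappa transcript (4.71 to 7.74) in empty vector cells and 31.1 times (26.3 to 37.2) in 3xF-TRPM1 cells. Pappa2 was therefore the main pappalysin transcript in each library.

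Pappa2 occupies chromosome 1 from 158711727 to 158980490 on the minus strand, and Pappa chromosome 4 from 65124174 to 65357509 on the plus strand. A long noncoding gene, 1600012P17Rik, shares 310 exonic bases with Pappa2 on the same strand and was not listed, so reads in that stretch cannot be assigned between them. The RefSeq start of Pappa2 lies 22315 bases inside the annotated gene, and its window, chr1:158958176-158958425 on the minus strand, had 49.2% G and C and 2 CpG, beside a median of 6 CpG over all promoters. It holds a CCAAT box on the other strand, 217 bases before the start, and no other of the motifs searched.
Pappa2: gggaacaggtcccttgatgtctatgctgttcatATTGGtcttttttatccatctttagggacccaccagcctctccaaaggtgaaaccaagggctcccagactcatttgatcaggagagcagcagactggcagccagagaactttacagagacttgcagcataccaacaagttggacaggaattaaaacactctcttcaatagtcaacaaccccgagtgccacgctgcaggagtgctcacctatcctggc

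The stanniocalcins, secreted inhibitors of the pappalysins, differed the other way. Stc2 measured 10.9 CPM (182 reads) with the empty vector against 5.90 CPM (104 reads) with 3xF-TRPM1, giving a log2 fold change of -0.83 (-1.25 to -0.53). Stc1 measured 3.41 CPM (57 reads) against 1.13 CPM (20 reads), giving a log2 fold change of -1.26 (-2.40 to -0.83). These were the listed genes of 3 in the list of inhibitors, which was chosen with earlier results of these data known. Both were called lower, beside 3.07% of all genes. Prg2, whose product forms a complex with PAPP-A in human, was not listed. Per kilobase, Pappa2 transcript was 1.21 times Stc2 transcript (1.013 to 1.44) in empty vector cells and 19.4 times (16.0 to 23.8) in 3xF-TRPM1 cells. The transcripts of Pappa2 and Stc2 were thus near parity in the empty vector library and not in the 3xF-TRPM1 library. This holds for that pair alone, since in empty vector cells Stc1 was at 0.812 and Pappa at 0.423 CPM per kb, beside 2.54 for Pappa2 and 2.102 for Stc2.

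The binding protein genes did not differ as a block, with 2 higher, 1 lower and 2 neither. The shares among all genes were 3.91% higher and 3.07% lower. Igfbp2, a carrier that is prominent in the nervous system, measured 60.3 CPM (1008 reads) with the empty vector against 102.9 CPM (1816 reads) with 3xF-TRPM1. Its ratio was 1.71 (1.58 to 1.85) and its log2 fold change 0.77. Igfbp4, known mainly as an inhibitor of IGF action and as the classical PAPP-A substrate, measured 42.4 CPM (710 reads) against 70.2 CPM (1239 reads). Its ratio was 1.66 (1.51 to 1.82) and its log2 fold change 0.72, close to that of Igfbp2. Igfbp4 lies on chromosome 11 from 99041244 to 99054392 on the plus strand.

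Igfbp5, a matrix-bound carrier that both pappalysins cleave, was the only IGF axis gene called lower. It measured 8.49 CPM (142 reads) with the empty vector against 1.87 CPM (33 reads) with 3xF-TRPM1, so the empty vector value was 4.54 times the other. The log2 fold change was -1.92, with an interval of -2.77 to -1.63 for the read ratio, and ranked 11 from the bottom of all genes. Per kilobase, Pappa2 transcript was 1.80 times Igfbp5 transcript (1.48 to 2.19) in empty vector cells and 70.9 times (50.4 to 103.2) in 3xF-TRPM1 cells. The protease transcript was thus above that of its known substrate in each library, and much further above it with 3xF-TRPM1. This pair joins the IGF axis genes with the highest and lowest log2 fold changes, which were already known. The ratio is one of transcripts, and protein was not measured here.

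Igfbp6, whose product binds IGF2 more tightly than IGF1, measured 10.6 CPM (177 reads) against 8.11 CPM (143 reads), giving a log2 fold change of -0.36 (-0.71 to -0.06). Igfbp7, a secreted relative with low affinity for IGFs, measured 521.6 CPM (8725 reads) against 406.9 CPM (7178 reads), giving a log2 fold change of -0.36 (-0.40 to -0.31). Igfbp6 lies on chromosome 15 from 102144362 to 102149511 on the plus strand and Igfbp7 on chromosome 5 from 77349240 to 77408041 on the minus strand. Both had lower values in 3xF-TRPM1 cells by less than 1.5-fold, and the interval of Igfbp6 nearly reached 1-fold. Igfbp7 shares 85 exonic bases with Polr2b on the opposite strand. Polr2b measured 319.5 against 284.8 CPM, giving a log2 fold change of -0.17, and since the strand setting of the counting was not given in the sources used here, reads in the shared bases cannot be told apart.

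**Figure D2:**
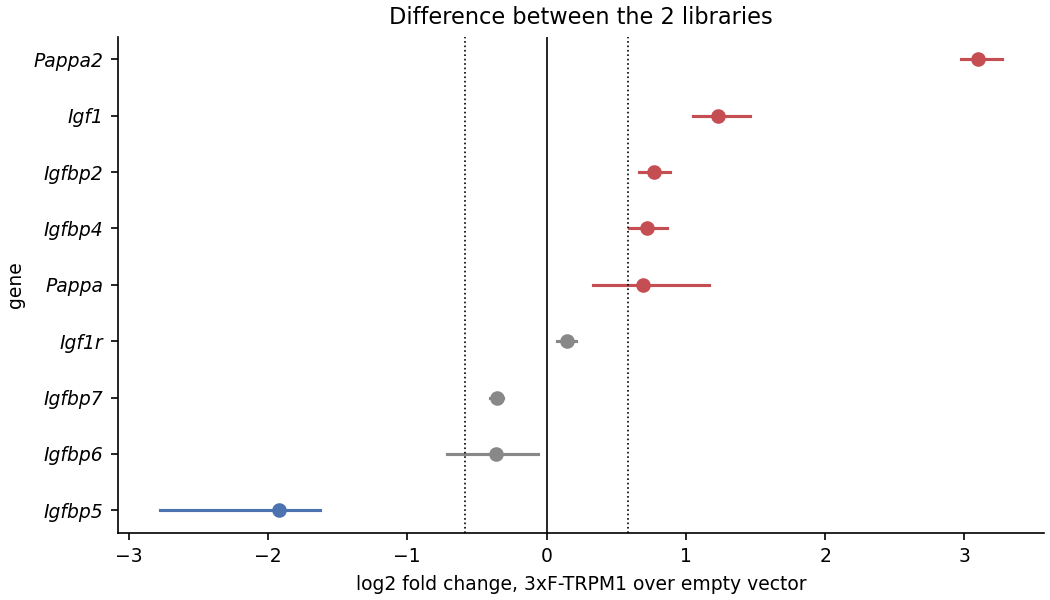
Points give the log2 fold change of 3xF-TRPM1 over empty vector for the 9 listed genes, lines the 95% exact counting interval of the read ratio, and dotted lines 1.5-fold, with genes called higher in red, lower in blue and neither in grey. Pappa2 at 3.10 and Igfbp5 at -1.92 lie at opposite ends, and Igf1r, Igfbp6 and Igfbp7 lie between the dotted lines.

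Igfbp2 and Igfbp5 are neighbours on chromosome 1. Igfbp2 runs from 72824503 to 72852474 on the plus strand and Igfbp5 from 72857932 to 72874884 on the minus strand, with 5457 bases between their facing ends. They differed in opposite directions. Per kilobase, Igfbp2 transcript was 23.1 times Igfbp5 transcript (19.4 to 27.7) in empty vector cells and 178.9 times (127 to 260.8) in 3xF-TRPM1 cells. The Igfbp2 window, chr1:72824230-72824479 on the plus strand, had 67.2% G and C and 14 CpG and holds 3 GC boxes and an E-box. The Igfbp5 window, chr1:72874866-72875115 on the minus strand, had 58.8% G and C and 10 CpG. It held none of the motifs in the letters searched. It does hold tatttaaa, which is close to TATAAA but was not counted as a match.
Igfbp2: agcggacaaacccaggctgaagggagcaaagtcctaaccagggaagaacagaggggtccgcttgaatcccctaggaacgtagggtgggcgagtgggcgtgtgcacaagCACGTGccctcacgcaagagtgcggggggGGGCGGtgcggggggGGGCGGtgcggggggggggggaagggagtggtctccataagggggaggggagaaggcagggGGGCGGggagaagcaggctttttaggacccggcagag
Igfbp5: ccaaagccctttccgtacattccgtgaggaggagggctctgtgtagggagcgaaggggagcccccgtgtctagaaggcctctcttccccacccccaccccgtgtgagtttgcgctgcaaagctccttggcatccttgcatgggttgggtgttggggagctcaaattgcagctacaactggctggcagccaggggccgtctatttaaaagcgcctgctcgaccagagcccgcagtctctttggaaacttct

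The other promoter windows were not alike either. Igfbp4 holds a TATA box 28 bases before its start, Igfbp7 4 GC boxes and Igf1r 2 GC boxes. Igfbp3 holds none of the motifs in the letters searched, though it holds tatatat, which was not counted as a match. Igfbp6 holds 2 CCAAT boxes and the TATA box letters on the other strand, 148 bases before its start. The RefSeq starts of Igf1r and Igfbp6 lie 570 and 176 bases outside the annotated genes, and those of Pappa2 and Igf1 22315 and 2846 bases inside. The windows of all these genes may therefore differ from the promoter in use. The FoxO and STAT elements were found in no IGF axis window. No motif searched was shared by the windows of all genes called higher that have an entry, among them the uncertain windows of Pappa2 and Igf1.

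The nearest listed genes lying wholly to each side gave 16 distinct neighbours outside the axis, at gaps from 1.014 to 3612 kb. Genes that overlap an IGF axis gene, such as Polr2b at Igfbp7, were not taken as neighbours. Of the 16 neighbours 1 was higher, 0 were lower and 15 were neither, beside 3.91% higher and 3.07% lower among all genes. These counts are near the background and say nothing particular of the neighbours. Their log2 fold changes ran from -0.54 to 0.60. The gene called higher was Adgrl3, an adhesion receptor 3612 kb from Igfbp7, at 4.24 and 6.69 CPM. The neighbours of Pappa2, Sec16b and Cop1, had log2 fold changes of 0.09 and 0.03.

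Levels of different genes were compared per kilobase. In empty vector cells the order was Igfbp7 at 431.4 CPM per kb, Igfbp2 at 32.6, Igf1r at 11.1, Igfbp4 at 9.61, Igfbp6 at 9.52, Pappa2 at 2.54, Igf1 at 1.70, Igfbp5 at 1.41 and Pappa at 0.423 CPM per kb. The counting intervals of Igfbp4 and Igfbp6 overlapped, as did those of Igf1 and Igfbp5. In 3xF-TRPM1 cells the order was Igfbp7 at 336.6 CPM per kb, Igfbp2 at 55.7, Pappa2 at 22.1, Igfbp4 at 15.9, Igf1r at 12.3, Igfbp6 at 7.29, Igf1 at 4.06, Pappa at 0.710 and Igfbp5 at 0.312 CPM per kb. No neighbours in this order had overlapping intervals. Pappa2 moved from place 6 to place 3, passing Igf1r, Igfbp4 and Igfbp6, and Igfbp5 changed places with Pappa at the bottom.

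**Figure D3:**
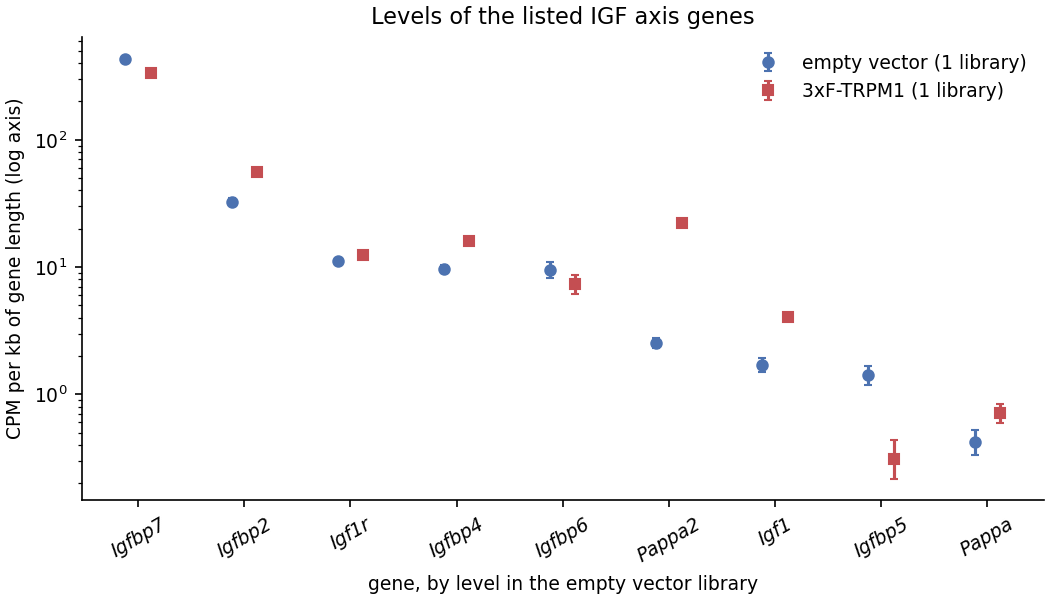
Levels of the 9 listed genes in CPM per kb of gene length are plotted on a log axis, ordered by level in the empty vector library, with circles for the empty vector library, squares for the 3xF-TRPM1 library and bars for the 95% exact Poisson interval of the reads. Igfbp7 is the most abundant in each library at 431.4 and 336.6 CPM per kb, and Pappa2 goes from 2.54 to 22.1 CPM per kb.

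Igfbp7 made up most of the binding protein transcript. Of the summed level per kilobase of the 5 listed Igfbp genes, Igfbp7 gave 89.0% in empty vector cells and 80.9% in 3xF-TRPM1 cells, Igfbp2 6.73% and 13.4%, Igfbp4 1.98% and 3.83%, Igfbp6 1.96% and 1.75%, and Igfbp5 0.292% and 0.0749%. The share of Igfbp7 in the reads of these genes was 81.1% (exact interval 80.3 to 81.8) and 69.0% (68.1 to 69.9), so its lower share exceeded counting error. The sum itself was 484.6 and 415.8 CPM per kb. Without Igfbp7, a sum chosen after its share was seen, it was 53.2 CPM per kb with the empty vector against 79.3 CPM per kb with 3xF-TRPM1, so the direction of the summed level turned with that gene. Within the remaining 4 genes Igfbp2 gave 61.4% and 70.3%, Igfbp4 18.1% and 20.1%, Igfbp6 17.9% and 9.20%, and Igfbp5 2.66% and 0.393%.

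**Figure D4:**
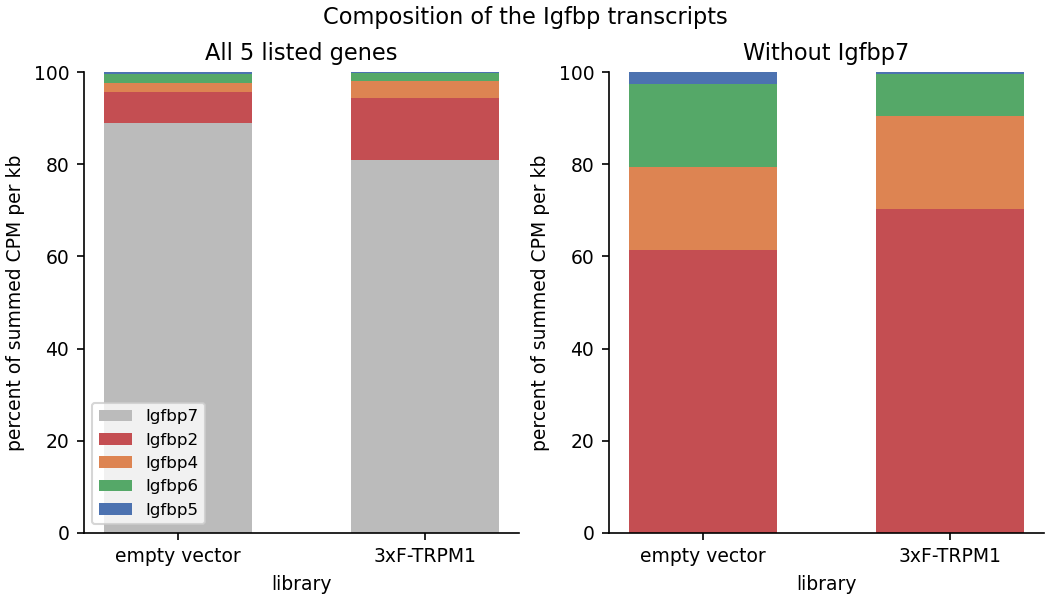
Stacked bars give the percent of the summed CPM per kb held by each listed Igfbp gene in each library, for all 5 genes on the left and without Igfbp7 on the right. Igfbp7 goes from 89.0% to 80.9% on the left, and Igfbp2 goes from 61.4% to 70.3% on the right.

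The other genes of the pathway were read from lists of ligands, inhibitors, proteases and signalling parts. Over 9 lists holding 98 genes, 77 were listed, 6 were higher, 3 were lower and 68 were neither. Among all genes 3.91% were higher and 3.07% lower, so the lower count was near the background. The lists were chosen with earlier results of these data known, so neither count is evidence about the pathway. The median log2 fold change of the listed genes was 0.10, beside 0.01 over all genes. Among other ligands and receptors 2 of 6 were listed and neither was called. Igf2r, the scavenger receptor for IGF2, measured 458.7 against 493.7 CPM, giving a log2 fold change of 0.11. Igf2 and the insulin genes Ins1 and Ins2 were not listed.

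Relatives of the binding proteins, a list of Igfbp1, the acid-labile subunit gene Igfals and genes whose products carry an IGFBP-type domain, were listed for 7 of 14. Of these 3 were higher and 0 lower, beside 3.91% and 3.07% among all genes, and their median was 0.52. The higher genes were the serine protease gene Htra3, at 6.22 and 11.5 CPM, and the CCN matrix protein genes Wisp2, at 94.03 and 156.5 CPM, and Ctgf, at 51.2 and 82.5 CPM. Their log2 fold changes were 0.84, 0.73 and 0.68. Other proteases able to cleave IGFBPs were listed for 9 of 12, with 1 higher and 1 lower, beside the same shares among all genes. The complement protease gene C1s1 measured 218.4 against 359.1 CPM, giving a log2 fold change of 0.72 (0.66 to 0.78), and the stromelysin gene Mmp3 measured 117.2 against 51.4 CPM, giving a log2 fold change of -1.18 (-1.31 to -1.08).

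Downstream of the receptor, 26 of 27 signal relay genes were listed, with 2 higher, 0 lower and a median of 0.11, beside 3.91% higher and 3.07% lower among all genes. The genes called higher, Foxo1 and Foxo6, encode FoxO transcription factors, a family that AKT phosphorylates. Foxo1 measured 52.8 against 89.3 CPM (883 and 1576 reads), giving a log2 fold change of 0.75 (0.64 to 0.88). Foxo6 measured 2.15 against 4.37 CPM (36 and 77 reads), giving a log2 fold change of 0.88 with a wide interval of 0.43 to 1.63. With a minimum average of 5 CPM, which leaves out Foxo6, 1 relay gene was higher. The other FoxO genes, Foxo3 at 0.17 and Foxo4 at -0.17 on the log2 scale, were neither.

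Genes that FoxO factors are known to induce were listed for 13 of 14, and 0 were higher or lower, with a median of 0.06 and a range of -0.23 to 0.48. The most abundant per kilobase over both libraries, Cited2, measured 127.3 against 119.1 CPM, giving a log2 fold change of -0.10. Brakes on the pathway were listed for 12 of 15 and 0 were called, with a median of -0.04. Inppl1, which encodes the lipid phosphatase SHIP2, was at 240.7 and 230.3 CPM. The growth hormone axis, which drives Igf1 in liver, was listed for 6 of 7 with 0 called and a median of 0.25, and Jak2, the kinase of the growth hormone receptor, was at 159 and 160.9 CPM. The Igf2 mRNA-binding protein genes were listed for 3 of 3 with 0 called, and Igf2bp2 was at 152.9 and 158.6 CPM. With 3.91% higher and 3.07% lower among all genes, 0 called in lists this short is near the background.

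**Figure D5:**
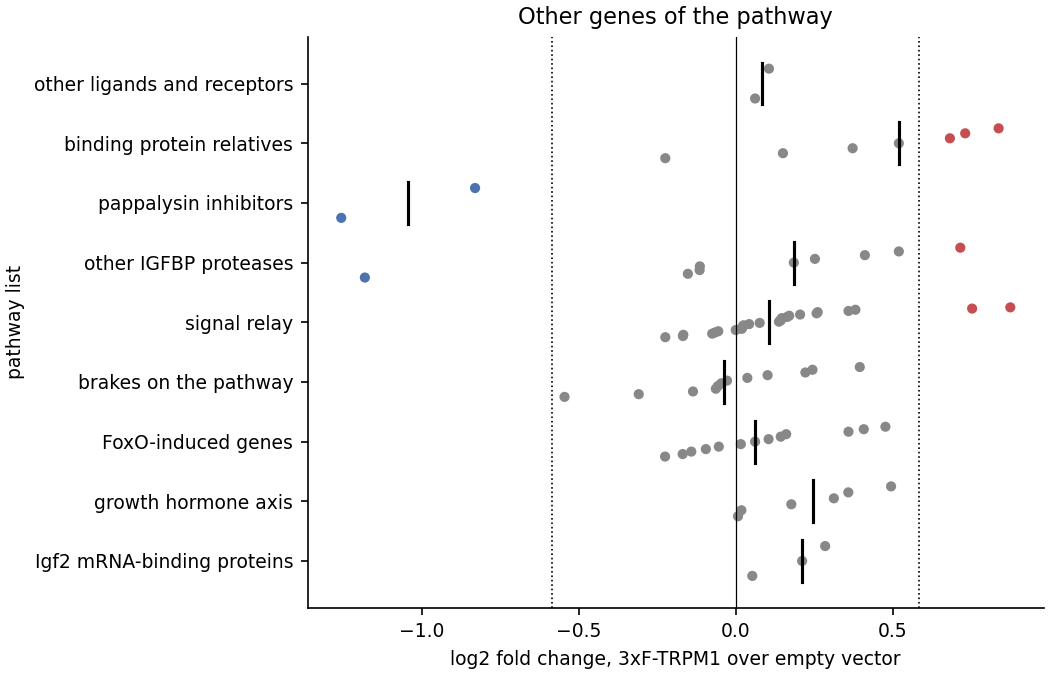
Each point is the log2 fold change of 3xF-TRPM1 over empty vector of 1 listed gene of a pathway list, coloured red when called higher, blue when lower and grey otherwise, with a black bar at the list's median and dotted lines at 1.5-fold. The pappalysin inhibitors lie left of the dotted line, with a median of -1.04, and the 12 listed brakes and 13 listed FoxO-induced genes lie between the lines.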

How the data were processed

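RNA from 1 empty vector and 1 3xF-TRPM1 culture of 661W cells was sequenced after KAPA mRNA HyperPrep library preparation. Per the submitters' processing notes and the study's methods, reads were aligned to GRCm38 with HISAT2 2.1.0 and counted per gene with featureCounts 2.0.0, and edgeR 3.28.1 and DESeq 1.40.0 were used. The methods name fragments per kilobase, but the values deposited by the authors are CPM scaled to effective library sizes of 16728172 and 17639743. Every value was a whole multiple of 1 step within 0.01 of a step (100% in each library), which gave the reads. The lowest values, 1.02 CPM in each library, show that genes below 1 CPM are outside the table, so a gene with little RNA in either library is not analysed here. The authors' fold changes, p-values and gene set enrichment results, and 2 further columns of per-sample values, were not used.

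Values were compared as log2 of CPM plus 0.5 for genes averaging 1 CPM or more over the libraries, a filter that removed 0 genes. Intervals were 95% Clopper-Pearson for ratios and shares and exact Poisson for levels; reads are not independent molecules, so they cover counting error only. Levels per kb used the deposited gene length, which equals the summed exon length in GENCODE M21 for 100% of 13275 matched genes. The IGF axis genes and the pathway and marker lists were chosen with earlier results of these data known. Named genes were all 10 IGF axis genes and, of each pathway list, every gene past 1.5-fold or, where there was none, the most abundant. Calculations were tested on simulated data and used scipy 1.17.1 and numpy 2.4.6 under Python 3.11.15, with pandas 2.3.3 for tables and matplotlib 3.10.9 for plots. Alternatives were pseudocounts of 0.1 and 1, no filter, a minimum average of 5 CPM, total count scaling, median-of-ratios scaling, a 2-fold threshold and, for shares, CPM without division by length.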

Additional observations from a re-analysis of the deposited data

How the results depend on the processing

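For the 9 listed IGF axis genes the direction was kept in all 63 combinations of gene and alternative, and the call in 60 of them; the other 3 were Pappa, Igfbp2 and Igfbp4 at the 2-fold threshold. That threshold left 2 IGF axis genes higher, 0 pathway genes higher and 2 lower (Stc1 and Mmp3, with Stc2 no longer called), and 115 higher and 117 lower among all genes. A mean of at least 5 CPM left 217 of the 408 genes lower, 1 of the 2 pappalysin inhibitors called lower (Stc2) and 1 of the 2 relay genes called higher (Foxo1). Scaling to total counts shifted the median over all genes by -0.04 and median-of-ratios scaling by -0.01 on the log2 scale. The first place of Pappa2 among the listed genes depends on the pseudocount, since Robo2 had the larger ratio of CPM. Without division by length, Igfbp7 held 81.1% of the Igfbp total in empty vector cells and 69.0% in 3xF-TRPM1 cells, in place of 89.0% and 80.9%, since its summed exon length is shorter than those of Igfbp2, Igfbp4 and Igfbp5. No paired analysis was possible because each group had 1 library, and for the same reason no library could be left out. Depth limits Pappa, Igfbp5, Igfbp6, Stc1, Stc2, Htra3 and Foxo6, which rest on 20 to 203 reads in a library.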
